A study of Mus musculus with 12 samples.

Results

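The RNA examined here is a set of 674 transcripts that stood lowest in carcinogen-exposed back skin of T cell-deficient mice given regulatory T cells (Tregs). The members were chosen by their measured level in all 12 libraries. CPM, the unit of level used here, is the estimated reads of a transcript divided by the reads of its library and scaled to a common total. A transcript was kept when its mean over the 12 libraries was 0.5 CPM or more and at least 1 library of each group was above 0. It became a member when the highest of the 3 Treg libraries lay below the lowest of the other 9, when the mean of each other group was at least 2 times the Treg mean, and when the wild-type libraries did not all lie above all Tcrb-/- libraries. The kept transcripts numbered 30678 of the 85565 listed, and the members were 2.2% of those kept. The last condition removed 100 of 774 transcripts.

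Whole back skin was sequenced in bulk in 4 groups of 3 libraries, all from female mice of at least 7 weeks of age, labelled FVB (the methods place Tcrb-/- on FVB/N). The UT WT group was wild-type skin left untreated, and the WT DMBA group was wild-type skin painted with 7,12-dimethylbenz[a]anthracene (DMBA). The Tcrb-/- group lacked the T cell receptor beta chain and was treated with DMBA in the same way. The Tcrb-/- + Treg group carried the same deletion, received Tregs from wild-type donors by intravenous injection, and was then treated with DMBA. According to the deposited design, DMBA was given weekly at 200 ng for 6 weeks, whereas the study's methods state the dose as a concentration. For carcinogenesis with DMBA alone, these methods give a first dose, a week of rest and lower weekly doses after it. Which doses the sequenced skin received is not stated there. The transferred cells were purified as CD3+CD4+CD25+ cells, so they were the only αβ T cells these mice were given, and γδ T cells, B cells and innate lymphocytes of the host remained. The WT DMBA libraries carry DMBA in their titles but are given as naive in the treatment field, and the titles were followed. Whether the 3 libraries of a group stem from different mice is not stated, and the p-values cover the variation among libraries, some of which may be technical.

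DMBA is a polycyclic hydrocarbon that skin enzymes convert to forms that bind DNA, and it is the classical initiator of mouse skin tumours. Tregs are CD4+ T cells that express the transcription factor Foxp3 and restrain other immune cells, and in skin they are also known to influence hair follicle cycling and epithelial repair. Mice without the T cell receptor beta chain have no αβ T cells, Tregs included, while their γδ T cells develop. In whole skin, a lower level of a transcript can come from fewer cells of the type that makes it or from less of it per cell, and these cannot be told apart here.

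The files name transcripts by FVB/NJ identifiers, and no table used here pairs these with genes, positions or sequences. The members are therefore described by identifier and level, and the Tcrb gene, skin markers and immune markers could not be looked up. Depth ranged from 17312566 to 31701620 estimated reads per library, and the 20 most abundant transcripts took 7.98% to 14.0% of them. On the CPM scale the median of all 30678 transcripts was lower in Tcrb-/- + Treg than in WT DMBA skin by a log2 difference of -0.15, which was 0.03 after TMM scaling (trimmed mean of M values, which corrects for differences in library composition) and -0.0058 with DESeq2 size factors. Log2 differences between group means of CPM were taken after adding 0.1 CPM.

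Together the 674 transcripts made up a small share of the reads in every library, and a smaller one in the Tcrb-/- + Treg libraries. Their summed level was 14752, 16523 and 18260 CPM in the UT WT libraries. It was 24540, 19042 and 18211 CPM in the WT DMBA libraries. It was 11756, 15207 and 16227 CPM in the Tcrb-/- libraries. The 3 Tcrb-/- + Treg libraries held 4312, 6500 and 3542 CPM, all below the other 9, as the choice of members fixes. The shares of reads were 1.65% ± 0.175 (SD, n = 3) in UT WT, 2.06% ± 0.344 in WT DMBA, 1.44% ± 0.234 in Tcrb-/- and 0.478% ± 0.153 in Tcrb-/- + Treg skin. Within the Treg group, replicate 2 had the highest sum and replicate 3 the lowest. The most abundant member held 13.7% of the summed level, the 10 most abundant 38.5% and the 50 most abundant 63.1%. Without the most abundant member, the sum was 3141 to 5384 CPM in the Tcrb-/- + Treg libraries and 10208 to 20662 CPM in the others.

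**Figure D1:**
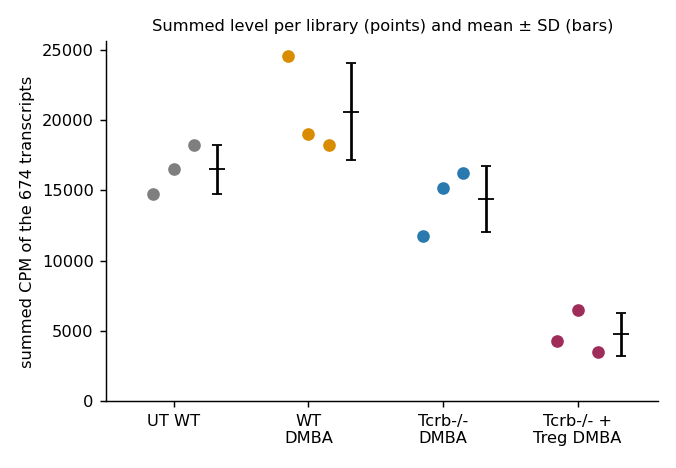
Summed CPM of the 674 transcripts on the vertical axis, with 1 point per library in the order of replicates 1 to 3, and a bar for the mean ± SD of the 3 libraries of each group. The Tcrb-/- + Treg libraries lie between 3542 and 6500 CPM, and the lowest of the other libraries, Tcrb-/- replicate 1, is at 11756 CPM.

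The typical member was of moderate level. The median of its mean over the 12 libraries was 5.55 CPM, against 6.42 CPM for all kept transcripts, and the range was 0.525 to 1933 CPM. The median member level was 6.20 CPM in UT WT, 7.76 CPM in WT DMBA, 5.79 CPM in Tcrb-/- and 1.68 CPM in Tcrb-/- + Treg skin. The ratio of the lowest other group mean to the Treg mean had a median of 2.91, and its quartiles were 2.38 and 3.85. It was over 3 for 311 members, over 5 for 91 and over 10 for 13. The Treg mean of 27 members was under 3 reads per library, or 0.132 CPM, and with these set to that floor the counts were 306, 82 and 8. In the Treg libraries 572 members were above 0 in all 3, 79 were at 0 in 1 library and 23 in 2 libraries.

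Values near the limits of the choice were close together. The member nearest the ratio limit stood at 2.002, and the nearest transcript outside it at 1.999. A further 537 kept transcripts lay without overlap below the other groups and met the last condition, but missed that ratio. Another 1247 met the ratio while a Treg library overlapped with another one, counted without the last condition. The lowest other library exceeded the highest Treg library by 1.40-fold in the median member and by 1.001-fold in the closest. The lowest mean level of a member was 0.525 CPM, and the highest among the 47 transcripts that missed only the minimum level was 0.498 CPM. Another 4 transcripts were at 0 in all Treg libraries and above 0 in all others, and were left out because a group at 0 was not kept.

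The same conditions on overlap and ratio, without the last one, can be applied to each group in turn. Lowest in Tcrb-/- + Treg skin were 774 transcripts, against 610 in UT WT, 33 in WT DMBA and 43 in Tcrb-/- skin. Highest in Tcrb-/- + Treg skin were 37 transcripts, against 591 in UT WT, 151 in WT DMBA and 39 in Tcrb-/- skin. On the CPM scale the Treg group thus had many more transcripts at the low end than at the high end, while the UT WT group had similar numbers at both. On this scale the median of all kept transcripts was also lower in Tcrb-/- + Treg skin, by log2 differences of -0.15 from WT DMBA and -0.18 from UT WT. The counts by group were not repeated after TMM scaling.

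Single libraries set the edge of the set. Of the other 9 libraries, Tcrb-/- replicate 1 was the lowest for 262 members, which is 38.9% of them, and UT WT replicate 1 for 138. Of the 3 Treg libraries, replicate 2 was the highest for 467 members, replicate 3 for 118 and replicate 1 for 89. The highest of all 12 libraries was WT DMBA replicate 1 for 294 members. Without Tcrb-/- + Treg replicate 2 the same conditions gave 1194 transcripts, of which 637 were members, and without Tcrb-/- replicate 1 they gave 881, of which 650 were members.

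**Figure D2:**
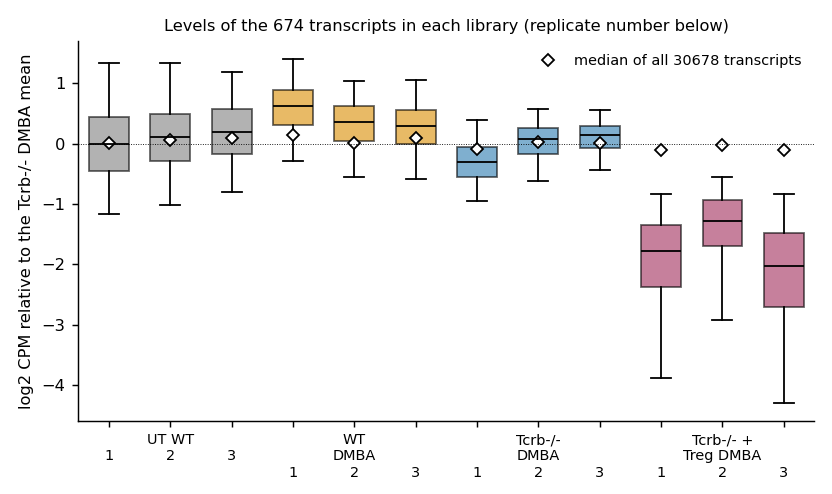
Log2 CPM of each member relative to its mean in Tcrb-/- DMBA skin, by library, as boxes (median and quartiles, whiskers at the 5th and 95th percentiles) with the median of all 30678 kept transcripts as diamonds. The medians of the members are -1.77, -1.28 and -2.02 in the Tcrb-/- + Treg libraries, while the diamonds lie between -0.10 and 0.14 in all 12 libraries.

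Compared member by member with the mean of Tcrb-/- skin, the median log2 difference was -1.77, -1.28 and -2.02 in Tcrb-/- + Treg replicates 1 to 3. It was 0.62, 0.36 and 0.29 in the WT DMBA libraries. It was 0.0017, 0.10 and 0.20 in the UT WT libraries and -0.30, 0.07 and 0.14 in the Tcrb-/- libraries themselves. Of the Tcrb-/- libraries, replicate 1 was the closest to the Treg libraries. Between group means, the median member was lower in Tcrb-/- + Treg than in Tcrb-/- skin by a log2 difference of -1.62, where all kept transcripts had -0.04. After TMM scaling the members had -1.54 and all kept transcripts 0.05. These differences describe the choice of members and were not tested.

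The same holds for the calls that a test over all transcripts gave in the contrasts used for the choice. edgeR's quasi-likelihood test, with Benjamini-Hochberg adjusted p under 0.01 and a fold over 2 as the call, placed 3 members lower in Tcrb-/- + Treg than in Tcrb-/- skin, where 0.011% of the 54539 transcripts tested were called lower. It placed 96 members lower in Tcrb-/- + Treg than in WT DMBA skin, against 0.348% of all. DESeq2 called 343 members lower in the first contrast, with 1.15% of all transcripts, and 505 in the second, with 2.59%. Of the kept transcripts, edgeR called 0.0163% lower in the first and 0.613% in the second, and DESeq2 1.7% and 4.15%. The number called thus depended strongly on the tool. Without Treg replicate 2, edgeR called 37 and 162 members lower in these contrasts, with 0.115% and 0.712% of all transcripts tested. Without WT DMBA replicate 1 it called 2 in the second, with 0.0149%. Leaving out any other library of the groups compared gave 0 to 7 calls in the first contrast, with 0% to 0.0223% of all. It gave 3 to 47 calls in the second, with 0.0241% to 0.18%. In the first, 485 to 527 members and 4.03% to 6.23% of all kept transcripts were lower at an unadjusted p under 0.05.

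The difference between WT DMBA and UT WT skin was not itself used in choosing the members, although the levels of both groups were. Every library of both groups had to lie above the Treg libraries, which were also DMBA-treated. This choice can shape the difference between UT WT and WT DMBA skin. The shares and test counts below therefore describe the members, and no response to carcinogen is read from them. The mean was higher in WT DMBA skin for 477 members, which is 70.8% of them, against 51.0% of all kept transcripts. The median log2 difference was 0.31 for the members and 0.01 for all. The 3 WT DMBA libraries all lay above the 3 UT WT libraries for 225 members, or 33.4%, where 14.6% of all kept transcripts did so. They all lay below for 42 members, or 6.23%, where 13.3% of all did. A difference of at least 2-fold between the means was seen upward in 85 members, or 12.6%, against 10.4% of all, and downward in 19, or 2.82%, against 7.50% of all.

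Few of these differences passed the test. edgeR called 0 members higher, where 0.161% of the 54539 transcripts were called higher, and 2 members lower, where 0.0697% were. Of the kept transcripts, 0.235% were called higher and 0.121% lower. At an unadjusted p under 0.05, edgeR placed 110 members higher, or 16.3%, against 7.77% of all kept transcripts, and 19 lower, or 2.82%, against 6.23% of all. DESeq2 called 26 members higher and 10 lower, with 1.55% and 0.702% of all transcripts, and 2.01% and 0.89% of those kept, called in these directions. WT DMBA replicate 1 had the highest summed level of the 12 libraries, and without it the median log2 difference of the members was 0.21 and the mean was higher for 428 of them, against medians and shares of -0.02 and 48.0% for all kept transcripts. Leaving out each of the 6 libraries in turn left 71 to 115 members higher and 13 to 17 lower at the unadjusted p, where 5.65% to 8.6% of all kept transcripts were higher and 4.89% to 5.21% lower. In all 6 cases edgeR called 0 members, where 0.015% to 0.0837% of all transcripts were called higher and 0.0075% to 0.0316% lower.

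**Figure D3:**
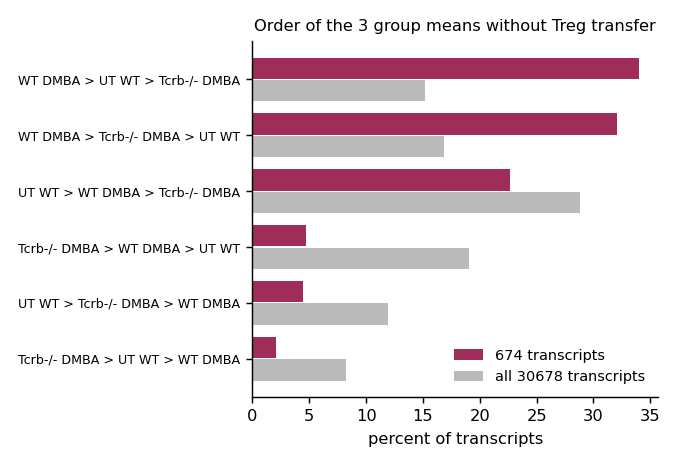
Percent of transcripts, on the horizontal axis, with each of the 6 possible orders of the group means of UT WT, WT DMBA and Tcrb-/- DMBA skin, for the 674 members and for all 30678 kept transcripts. The 2 orders that begin with WT DMBA hold 34.0% and 32.05% of the members and 15.2% and 16.8% of all.

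The choice required every library of the 3 groups without Tregs to lie above the Treg libraries, and this can shape the order of their means. The shares given here therefore describe the members only. Among the 3 groups that received no Tregs, WT DMBA skin most often had the highest mean. It was highest for 445 members, or 66.0%, against 32.02% of all kept transcripts. For 294 members the highest of all libraries was WT DMBA replicate 1. UT WT skin was highest for 183 members, or 27.2%, against 40.8% of all, and Tcrb-/- skin for 46, or 6.82%, against 27.2%. The most frequent order, held by 229 members, was WT DMBA above UT WT above Tcrb-/-, followed by WT DMBA above Tcrb-/- above UT WT with 216. The median log2 difference of Tcrb-/- from WT DMBA skin was -0.45 for the members and -0.11 for all kept transcripts. The 3 Tcrb-/- libraries all lay below the 3 WT DMBA libraries for 200 members, or 29.7%, where 14% of all did, and all above for 1 member, or 0.148%, where 5.76% of all did. This contrast shares the WT DMBA libraries with the one before it, and the last condition of the choice used wild-type and Tcrb-/- levels, so no test is given. The order UT WT above WT DMBA above Tcrb-/- was held by 153 members, or 22.7%, against 28.8% of all kept transcripts, among which it was the most frequent.

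By estimated reads the most abundant member was MGP_FVBNJ_T0019502.1, a transcript of 5562 nt. CPM is not corrected for length, so this ranks reads and not molecules. Its level was 1946, 2480 and 3082 CPM in UT WT, 3878, 1988 and 2381 CPM in WT DMBA, and 1548, 1830 and 1951 CPM in Tcrb-/- skin. It was 595, 1116 and 401 CPM in the Tcrb-/- + Treg libraries, with replicate 2 the nearest to the other groups. The means of the other groups were 3.55, 3.90 and 2.52 times the Treg mean of 704 CPM ± 369 (SD, n = 3). UT WT and WT DMBA libraries overlapped, and WT DMBA differed from UT WT by a log2 fold change of 0.14 ± 0.33 (SE; edgeR adjusted p = 0.973).

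With this floor of 3 reads per library, the largest ratio belonged to MGP_FVBNJ_T0051193.1, a transcript of 2537 nt. It had 9.91, 20.7 and 12.8 CPM in UT WT, 10.03, 8.74 and 21.8 CPM in WT DMBA, and 20.1, 5.15 and 4.41 CPM in Tcrb-/- skin. In the Treg libraries it was at 0 in replicates 1 and 3 and at 0.994 CPM, from 24.9 estimated reads, in replicate 2. The lowest other group mean, that of Tcrb-/- skin, was 29.9 times the Treg mean. Within each other group the highest library was more than 2 times the lowest, and the 3 groups overlapped. WT DMBA differed from UT WT by a log2 fold change of -0.08 ± 1.10 (SE; edgeR adjusted p = 1).

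The members named next were the 2 of smallest edgeR p in each direction between WT DMBA and UT WT skin. Their p-values and fold changes describe these members, and no response to carcinogen is read from them. Of the members with a higher value in WT DMBA than in UT WT skin, MGP_FVBNJ_T0046746.1 had the smallest p. This transcript of 718 nt had 53.6, 48.5 and 54.9 CPM in UT WT and 115, 94.5 and 100.1 CPM in WT DMBA skin. It had 37.4, 57.0 and 56.8 CPM in Tcrb-/- skin, and 19.8, 22.8 and 22.5 CPM in Tcrb-/- + Treg skin. The WT DMBA libraries lay above all others, and the Tcrb-/- libraries overlapped with UT WT. The log2 fold change with DMBA was 0.99 ± 0.14 (SE; edgeR adjusted p = 0.00833), just short of the 2-fold limit for a call.

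The next by p was MGP_FVBNJ_T0040672.1, of 2859 nt, with a larger difference. Its level was 16.1, 17.9 and 16.5 CPM in UT WT and 65.3, 89.9 and 88.4 CPM in WT DMBA skin. In Tcrb-/- skin it was 23.9, 18.8 and 28.6 CPM, above every UT WT library and below every WT DMBA library. In Tcrb-/- + Treg skin it was 4.58, 11.3 and 4.29 CPM. The WT DMBA mean was 12.1 times the Treg mean, the UT WT mean 2.51 times and the Tcrb-/- mean 3.53 times. The log2 fold change of WT DMBA from UT WT skin was 2.29 ± 0.34 (SE; edgeR adjusted p = 0.0124), which missed the limit of 0.01.

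Both members called lower in WT DMBA than in UT WT skin stood high in untreated skin alone. MGP_FVBNJ_T0025169.1, of 2054 nt, had 14.4, 14.6 and 15.3 CPM in UT WT and 1.49, 0.751 and 0.995 CPM in WT DMBA skin. It had 0.5001, 1.43 and 1.93 CPM in Tcrb-/- skin, overlapping with WT DMBA, and 0.173, 0.200 and 0.293 CPM in Tcrb-/- + Treg skin, where the estimates rested on 4, 5 and 6 reads. It fell by 3.77 ± 0.51 (SE) on the log2 scale between UT WT and WT DMBA skin (edgeR adjusted p = 0.00819). All its estimates were whole numbers of reads, as Salmon gives where no read is divided with another transcript.

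MGP_FVBNJ_T0091659.1, of 1439 nt, had 17.8, 17.8 and 17.4 CPM in UT WT and 5.17, 3.75 and 3.44 CPM in WT DMBA skin. It had 3.09, 4.87 and 4.48 CPM in Tcrb-/- skin and 1.04, 1.20 and 1.76 CPM in Tcrb-/- + Treg skin. It fell by 2.09 ± 0.30 (SE) on the log2 scale between UT WT and WT DMBA skin (edgeR adjusted p = 0.00965). The WT DMBA and Tcrb-/- libraries overlapped, and the Treg libraries lay below both. Neither call held when any 1 of the 6 libraries compared was left out, with adjusted p of 0.0249 to 0.0531, while the fold change remained between -4.01 and -1.95.

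**Figure D4:**
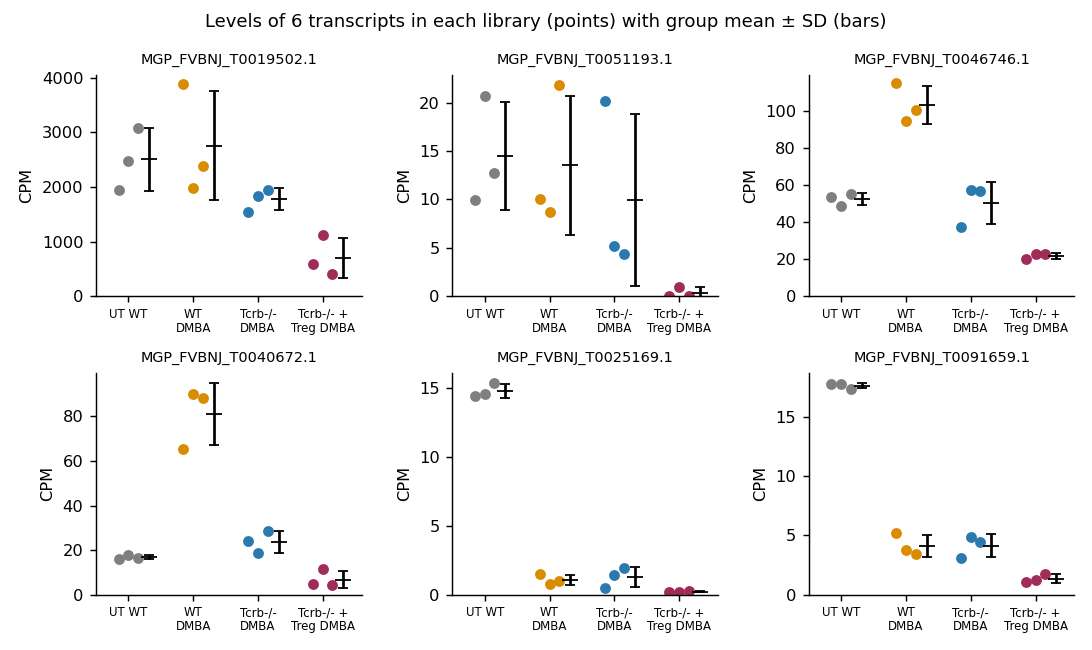
CPM of 6 members on the vertical axes, with 1 point per library in the order of replicates 1 to 3 and a bar for the mean ± SD of each group of 3 libraries. In the lower row, T0040672.1 is highest in WT DMBA skin at 65.3 to 89.9 CPM, and T0025169.1 and T0091659.1 are highest in UT WT skin at 14.4 to 17.8 CPM.

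The members were of ordinary length. Their median was 2357 nt, against 2301 nt for all kept transcripts, and it ranged from 172 to 11813 nt. The share with whole-number estimates differed more. For 117 members, or 17.4%, the estimate was a whole number within 0.01 in all 12 libraries, against 5.15% of all kept transcripts. A whole number is what Salmon gives when no read is divided between transcripts, so the estimates of these members show no sign of divided reads. Whether their reads also match other transcripts was not tested. The other 557 had a fractional estimate in at least 1 library, and their levels depend on how reads were divided and are less certain.

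Some members had consecutive identifier numbers. The number of 84 members, or 12.5%, was next to that of another member, against 17.9% of the 610 transcripts lowest in UT WT and 15.4% of the 591 highest in UT WT skin. They formed 32 runs of 2, 1 run of 3, 2 runs of 4 and 1 run of 9. The longest run, from MGP_FVBNJ_T0046738.1 to MGP_FVBNJ_T0046746.1, was singled out after the values were seen, and it ends with the transcript of smallest p for a higher value with DMBA. Its members were 412 to 2884 nt long, with mean levels of 0.609 to 56.9 CPM and ratios of 2.32 to 4.83. The highest, of T0046740.1, rests on the floor of 3 reads per library and is 5.54 without it. None of the 9 had whole-number estimates in all libraries, so their levels depend on how reads were divided, and whether they were divided among the 9 was not tested.

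The summed level of the run was 195, 216 and 224 CPM in UT WT, 355, 274 and 267 CPM in WT DMBA, and 138, 218 and 198 CPM in Tcrb-/- skin. It was 51.2, 75.9 and 58.9 CPM in Tcrb-/- + Treg skin. The means of the other groups were 3.41, 4.81 and 2.98 times the Treg mean of 62.0 CPM ± 12.6 (SD, n = 3). WT DMBA skin had the highest mean for 7 of the 9 and UT WT skin for 2. The transcript numbered just before the run had 0.633, 1.11 and 0.569 CPM in the Treg libraries and 0.231 to 1.04 CPM in the others, with overlap, and was no member. The one just after it, at 0.865, 1.43 and 1.17 CPM in the Treg libraries, overlapped with Tcrb-/- skin at 1.23, 2.26 and 1.84 CPM.

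**Figure D5:**
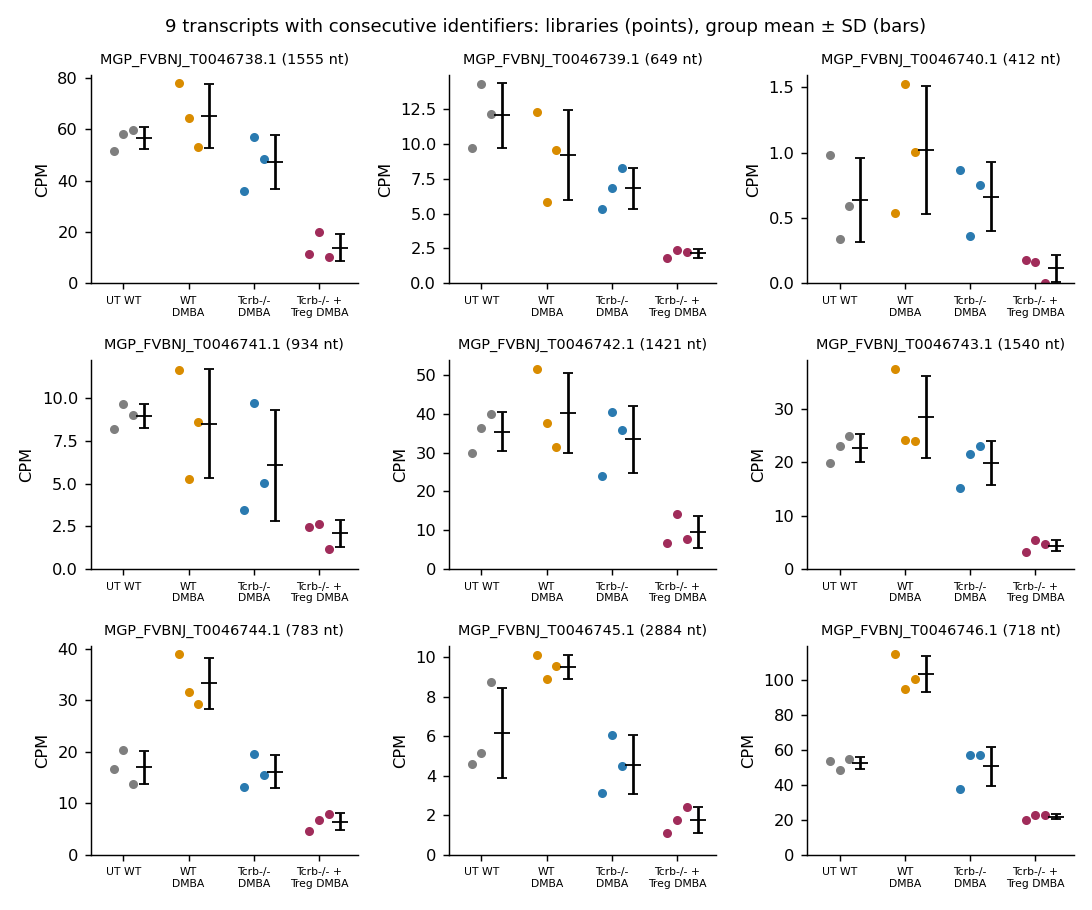
CPM of the 9 transcripts with consecutive identifiers on the vertical axes, with 1 point per library in the order of replicates 1 to 3 and a bar for the mean ± SD of each group. Each panel has its 3 Treg libraries below the other 9, and T0046744.1, T0046745.1 and T0046746.1 have all 3 WT DMBA libraries above the UT WT libraries.

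The kept transcripts numbered next to a member, but not members themselves, were 430. Their median log2 difference of Tcrb-/- + Treg from Tcrb-/- skin was -0.36, against -0.03 for all kept transcripts that were no members. The mean was lower in 301 of the 430, or 70.0%, against 53.2%. At least 2-fold lower without overlap were 58, or 13.5%, against 3.67%, and at least 2-fold higher without overlap were 3, or 0.698%, against 1.18%. These neighbours were more often lower than transcripts in general, though most of them did not reach the differences of the members. Transcripts that only the last condition removed were not left out of either set. Neighbours of the transcripts lowest or highest in UT WT skin were not compared. Whether transcripts with neighbouring numbers share reads was not tested.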

How the data were processed

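Total RNA of whole back skin was sequenced in 12 libraries. The authors mapped reads to the FVB/NJ cDNA transcripts with Salmon 1.5.2 and deposited, per library, estimated counts (expected counts, not normalized) and TPM for each transcript. Reads shared by transcripts were divided between them by Salmon. TPM values served as an alternative only. Per the submitters' processing notes, CASAVA 1.8.4, FastQC 0.12.1 and MultiQC 1.11 were also used. CPM was computed from the estimated counts. For tests these were rounded, transcripts with under 10 reads over all libraries were left out, and 1 edgeR 4.0.16 fit (TMM, quasi-likelihood, R 4.3.3) of 12 libraries without covariates was made. DESeq2 1.42.0 was the alternative. Standard errors are the fold change over the square root of F. The tests were run on simulated counts with known changes, as a check of the sign and size of the estimates. How many true changes they miss is not given, so few calls need not mean few changes. Replicates differed by more than sampling noise (chi-square of 21.8 to 107.6 per transcript), so none were merged. Tests were on transcripts because no gene table matched.

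The members, the transcripts named and the comparisons were chosen with earlier results of these data known. Named were the member of highest mean CPM, that of largest ratio (with the Treg mean floored at 3 reads per library), and the 2 members of smallest p in each direction between WT DMBA and UT WT skin. Lists of genes and cell markers were prepared and could not be used, since no symbols matched. The SDs and SEs given cover variation among libraries, and the floor of 3 reads per library concerns low counts only. Python 3.11.15 and matplotlib 3.10.9 were used for the plots.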

Additional observations from a re-analysis of the deposited data

How the results depend on the processing

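The number of transcripts that met the choice was 674, and a minimum level of 5 CPM gave 358, a ratio of 3 gave 311 and whole-number estimates alone gave 117. Leaving out 1 library gave 624 to 1194, the highest without Tcrb-/- + Treg replicate 2. TMM-adjusted library sizes gave 545 transcripts, 516 of them members, DESeq2 size factors 597 with 563 members, and TPM 694 with 590 members. For WT DMBA against UT WT, members called were 2 by edgeR, both lower, 36 by DESeq2, 4 after filterByExpr (2 higher, 2 lower, with 0.304% and 0.113% of all transcripts), 5 in a fit of the 2 groups alone (4 and 1, with 0.0733% and 0.0532%), 14 at adjusted p under 0.05 with no fold limit (8 and 6, with 0.695% and 0.449%), 1 with whole-number estimates, and 0 whichever 1 library was left out. For Tcrb-/- + Treg against Tcrb-/-, a contrast the choice used, the numbers were 3, 343, 13, 0, 52, 0 and 0 to 37 in the same order, and 10 with no filter. The shares of all transcripts called lower were 0.011%, 1.15%, 0.0484%, 0% and 0.147% up to the setting with no fold limit. They were 0% to 0.115% when 1 library was left out and 0.0226% with no filter. For Tcrb-/- + Treg against WT DMBA, also used by the choice, the numbers were 96, 505, 164, 0, 323, 12 and 2 to 162. The shares called lower were 0.348%, 2.59%, 0.903%, 0% and 1.67% up to the same setting, and 0.0149% to 0.712% when 1 library was left out. The share called among all transcripts with whole-number estimates was not computed. Nothing is therefore read from the 1, 0 and 12 members called with whole-number estimates. In the fits of 2 groups alone, 444 and 538 members of the last contrasts were lower at an unadjusted edgeR p under 0.05 (4.01% and 8.21% of all kept transcripts). For WT DMBA against UT WT, such a fit placed 177 members higher and 26 lower at this p, against 8.73% and 8.33% of all kept transcripts. With the replicate number as a block, edgeR called 0, 0 and 10 members, the last with 0.0532% of all transcripts called lower. At an unadjusted p under 0.05 it placed 106 higher and 19 lower (7.45% and 5.9% of all kept transcripts), 538 lower (5.03%) and 585 lower (9.13%). With no filter 1 member was called higher and 1 lower with DMBA (0.14% and 0.0588% of all transcripts), so the balance of directions among so few calls turned with the setting. The labels do not say what the replicate numbers share, and same-numbered libraries did not deviate together (correlations of -0.06 to 0.13 over 18 pairs), so the block tests no pairing. The log2 fold change of T0040672.1 was 2.18 to 2.47 over its alternatives, with adjusted p of 8.57e-09 to 0.0628, and that of T0046746.1 was 0.94 to 1.04, with 3.57e-09 to 0.0439. No alternative turned the direction of a named member. For T0019502.1 and T0051193.1 only the ratio to the Treg mean was varied, and the choice fixes its direction. The others were picked by their p in each direction, so nothing is read from the steady directions. The cause of the shifts between settings was not tested. Members at a few reads, such as T0025169.1 in Treg skin, are limited by depth.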
